A study of Mus musculus with 76 samples.

Results

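Cultures titled Tregdiff, of cells that the design text calls regulatory T cells, were compared at activation labelled T2 with those without activation, labelled T0. The 12 libraries, 6 a side, were taken by the label in the column names of the culture table and are 12 of the 76 libraries of the series. They fell into 4 groups of 3 libraries. These were SOD1 cells at T2, wild-type (WT) cells at T2, SOD1 cells at T0 and WT cells at T0. SOD1 stands for the label Sod1Mut, and the strain label of every library, WT included, is SOD1-G93A, a mouse line that carries a mutant human SOD1 transgene under the human SOD1 promoter. The design text says that Treg cells were placed in culture and activated for different times, and the protocol names digestion of the thymus, cell sorting and the SMARTseq v4 low input kit. The labels give no unit for T2, no agent of activation and no age for the cultures. A further 6 libraries at T20 entered the fit of the spread and are given as levels. Nothing in the labels says that the 3 libraries of a group came from separate animals, so the p-values measure the spread between these libraries, which may be technical.

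Regulatory T cells (Treg cells) are CD4 T cells that hold back other T cells, and they are marked by the transcription factor Foxp3 and by high levels of Il2ra, the alpha chain of the interleukin-2 receptor. Binding of the T cell receptor (TCR) starts a fast wave of transcription factors of the AP-1, EGR and NR4A families through calcium and NFAT, MAP kinase and NF-kappaB. Activated T cells then leave quiescence: they switch off genes of resting and circulating cells, raise nutrient uptake, glycolysis, ribosome assembly and nucleotide synthesis, and enter the cell cycle. Rag1, Rag2 and Dntt, which cut and join the receptor gene segments, belong to thymocytes that are still building their receptor.

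Total counts ran from 171619 to 5100377 per library at T2 and from 404578 to 2392534 at T0. Levels are CPM, counts scaled by library size and TMM factor to a common total, and where 3 levels are given for a group they are the lowest, the median and the highest of its 6 libraries. Sod1 did not overlap between the genotypes at T2 and T0: it ran from 1049 to 4942 CPM in the SOD1 libraries and from 157 to 417 CPM in the WT libraries. Library shares were compared with two-sided exact permutation tests. Mitochondrially encoded transcripts took 1.67 ± 0.536% of counts at T2 and 4.52 ± 1.08% at T0 (SD, n = 6 each, exact permutation p = 0.00216, the smallest this test can give). With T2 and T0 libraries matched by replicate number, an exact sign-flip test of this share gave p = 0.03125. Loci that resemble ribosomal RNA took 17.2 ± 4.22% at T2 and 9.12 ± 3.30% at T0 (exact permutation p = 0.00866), and 5 pile-up loci named after their values were seen (Cxadr, Rspo1, Nup98, Zrsr1 and Tmub2) took 2.17 ± 2.37% at T2 and 14.3 ± 11.8% at T0, given with no test since they were chosen on these values. Their part in the gene results was not tested, except that the fits were repeated without these loci. A pair of libraries stood apart. T2 SOD1 1 had the lowest Sod1 of the 6 SOD1 libraries, 1049 CPM, and a ribosomal protein share of 2.10%, while T0 WT 2 had Il2ra at 262 CPM, against 0.981 to 39.6 CPM in the other T0 libraries. At Gm8566, a locus that also differed by genotype, T2 SOD1 1 held 462 CPM, against 1518 to 3990.5 CPM in the other SOD1 libraries at T2 and T0. T0 WT 2 held 127 CPM of it, against 4.9 to 17.8 CPM in the other WT libraries, and its Sod1, at 417 CPM, was above that of every other WT library at T2 and T0. The fits were repeated without these 2 libraries, and values that moved are given beside the results.

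The markers given for these cultures were all higher at T2. Foxp3 (chromosome X, 7573644 to 7595245, plus strand, mm10 annotation) stood at 59.4, 109 and 265 CPM at T2, against 3.56, 6.92 and 31.8 CPM at T0. The groups did not overlap, and at T2 the 3 SOD1 libraries held 136, 168 and 265 CPM, against 78.6, 59.4 and 82.3 CPM in the 3 WT libraries. This difference between the genotypes at T2 was not tested. The mean log2 fold change of both genotypes was 3.26 ± 0.51 (SE, adjusted p = 3.31e-05), and 4.17 without T0 SOD1 3, whose Foxp3 of 31.8 CPM was the highest at T0. Il2ra (chromosome 2, 11642807 to 11693193, plus strand) stood at 1129, 2068 and 3364 CPM at T2, against 0.981, 24.9 and 262 CPM at T0. The groups did not overlap, and the log2 fold change of 5.23 ± 0.75 (adjusted p = 1.31e-05) was 7.86 without T0 WT 2. Cdk1, the kinase that drives entry into mitosis, stood at 118, 201 and 269.5 CPM at T2, against 4.47, 7.03 and 17.8 CPM at T0, again without overlap (log2 fold change 4.58 ± 0.30, adjusted p = 1.07e-08). In bulk samples like these, fewer cells that express a gene and less RNA per cell cannot be told apart.

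The titles of the T0 libraries read Tregdiff, and the design text calls the cultured cells Treg cells. Beside a median Foxp3 of 6.92 CPM the T0 libraries held genes of thymocytes that rearrange their receptor. Whether the T0 cells were Treg cells or cells not yet differentiated to them was not tested. Dntt, the enzyme that adds bases at receptor joints, stood at 0, 0.82 and 2.7 CPM at T2, against 103, 171 and 339 CPM at T0 (log2 fold change -7.3 ± 0.40, adjusted p = 2.16e-09). Rag1, a subunit of the recombinase, stood at 0, 0 and 5.61 CPM at T2, against 6.72, 66.6 and 462 CPM at T0. The groups did not overlap, though the highest T2 library at 5.61 CPM lay close to the lowest T0 library at 6.72 CPM, and the log2 fold change of -9.24 ± 1.09 was -8.39 without T0 WT 2. Of 10 markers of double-positive thymocytes, 9 were tested and 8 fell (34.3% of all genes tested did), with a median log2 fold change of -3.80, and Ptcra was not tested. These genes included Themis, needed for thymocyte selection (-3.58), and Cd8b1, the CD8 beta chain (-3.77), while Cd8a did not pass (0.29, adjusted p = 0.644). Their summed level was 47.8 to 219 CPM at T2 and 508 to 1547 CPM at T0. Of the 10 T cell markers 7 fell (34.3% of all genes), 1 rose (23.8%) and 2 did not pass, and with no filter on low counts 4 fell and 2 rose. Cd4 stood at 56.1, 97.2 and 165 CPM at T2, against 200.4, 238 and 288 CPM at T0, and Cd3e differed by less than its spread (-0.16, adjusted p = 0.589).

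**Figure D1:**
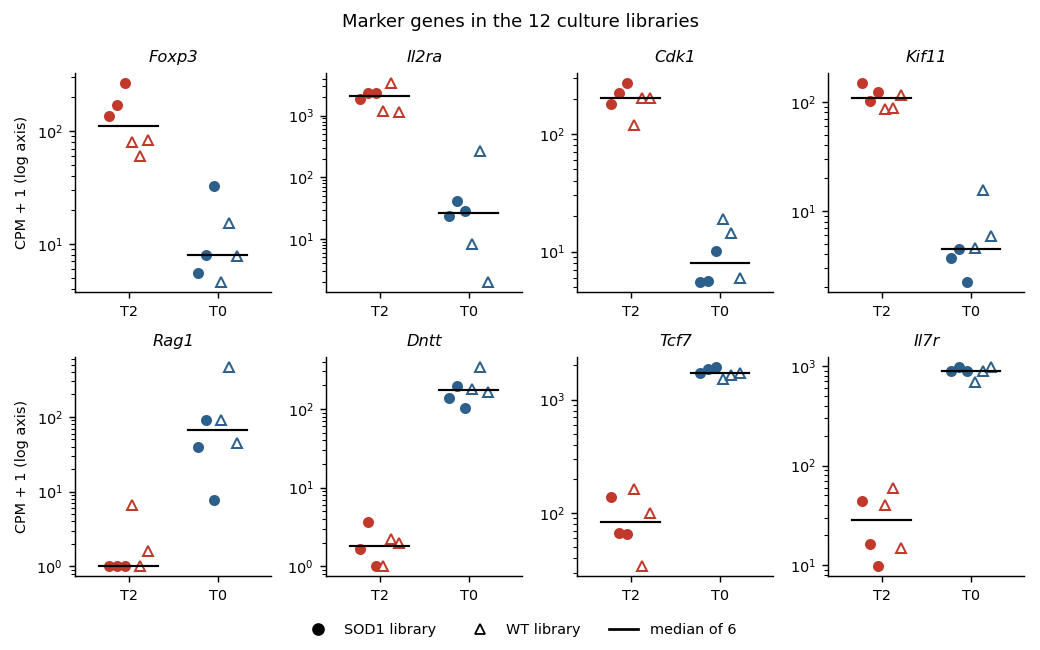
Level of 8 genes in CPM + 1 on a log axis in each of the 6 T2 and 6 T0 libraries, with filled circles for SOD1, open triangles for WT and a bar at the median of 6. Foxp3, Il2ra, Cdk1 and Kif11 lie higher at T2 without overlap, and Rag1, Dntt, Tcf7 and Il7r lie lower at T2 without overlap.

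Markers of cells other than T cells differed by list. Of 11 B cell markers, 9 of them too low to test, the summed level was 5.4 to 24.5 CPM at T2 and 18.3 to 65.7 CPM at T0. The 16 myeloid and dendritic markers summed to 57.8 to 146 CPM at T2 and 60.5 to 99.3 CPM at T0, with 1 higher, 1 lower and 3 that did not pass among 5 tested. Of the 12 stromal and thymic epithelial markers 4 were tested, 3 fell and 1 rose, and the list summed to 24.5 to 113 CPM at T2 and 171 to 328 CPM at T0. Col1a1, a collagen of stromal cells, stood at 0, 5.67 and 39.1 CPM at T2, against 55.2, 111 and 146 CPM at T0 (-3.78, and -7.08 without T2 WT 3). The member that rose was Epcam, an epithelial marker, with a log2 fold change of 2.17 (2.03 to 2.56 over the alternative settings). Of 10 markers of CD8 and cytotoxic cells 9 were tested, 6 rose (23.8% of all genes tested did) and 1 fell (34.3%). Gzmb, the protease granzyme B that activated T cells also make, stood at 283, 485 and 1961 CPM at T2, against 0, 9.65 and 141 CPM at T0. Its log2 fold change was 4.91 ± 0.78, and 4.31 without T2 WT 2 and 7.92 without T0 WT 2. The 8 natural killer cell markers summed to 14.1 to 101 CPM at T2 and 0 to 8.91 CPM at T0. Only 2 passed the filter on low counts, and both rose (23.8% of all genes did). Both were low at T0, and the filter favours a rise in such genes, which also bears on the count of cytotoxic markers. They were Eomes, a transcription factor of cytotoxic and natural killer cells that is in both lists, at 6.12, 34.6 and 73 CPM at T2, against 0, 3.61 and 5.89 CPM at T0, and Fcer1g, a signalling chain of immune receptors, at 2.49, 4.87 and 13.3 CPM at T2, against 0, 0.936 and 1.83 CPM at T0 (log2 fold change 2.61 ± 0.68, adjusted p = 0.00302). The receptor genes Ncr1, Klra4, Klra8, Klrb1c and Klre1 and the adaptor Tyrobp were too low to test. What part other cell types had in the results was not tested.

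Of 11787 genes tested, 6850 (58.1%) were called at an adjusted p under 0.05. Relative to T0, T2 was higher for 2802 genes (23.8%) and lower for 4048 (34.3%), and with at least a 2-fold change these were 2189 (18.6%) and 3345 (28.4%). For 1154 genes (9.79%) all 6 T2 libraries lay above all 6 T0 libraries, and for 2101 (17.8%) they lay below. With so large a share of genes called, the counts of gene groups are read beside these percentages. Genes near 0 in one group could pass the filter on low counts only through others, which favours a change away from that group. The balance of the directions depended on the scaling. Higher genes made up 40.9% of the calls and the median log2 fold change of all genes was -0.24, but without the ribosomal RNA-like and mitochondrial loci the calls were 3568 higher and 3264 lower and the median was 0.04. Over all settings the median of all genes moved by up to 0.28, and medians of single lists could move further, such as that of NF-kappaB genes between 0.62 and 1.32 and that of the TCR machinery between -1.16 and -0.66.

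Among the higher genes with the smallest p beside Cdk1, Kif11, a motor that separates the spindle poles, stood at 84.2, 107 and 147 CPM at T2, against 1.22, 3.53 and 14.7 CPM at T0 (log2 fold change 4.48 ± 0.30, adjusted p = 1.11e-08). Prc1, which bundles the spindle midzone, rose by 4.09 ± 0.28 on the log2 scale, Aurkb, the kinase of chromosome alignment, by 4.38 ± 0.30, and Tfdp1, the partner of the E2F factors, by 3.32 ± 0.23. Gtse1 (3.0), a mitotic microtubule protein, belonged to this set as well, as did Espl1, the protease separase (3.96, 4.61 without T0 SOD1 3), Shcbp1 (5.42, 6.8 without T0 SOD1 2) and Cndp2, a dipeptidase (2.99). Hivep3, a zinc finger factor that binds kappaB-type DNA sites, stood at 197, 353 and 645 CPM at T2, against 7.12, 14 and 29.4 CPM at T0 (log2 fold change 4.51 ± 0.32, adjusted p = 1.31e-08). The groups did not overlap for any of these genes, which the rule that chose them required.

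Among the largest increases, Ifitm2, an interferon-induced membrane protein with close relatives that share sequence, stood at 8.8, 36.3 and 57.6 CPM at T2, against 0, 0 and 1.34 CPM at T0 (log2 fold change 7.33 ± 0.83, 9.54 without T0 WT 2). Il3, the cytokine interleukin-3, was at 0 in all 6 T0 libraries and at 4.35, 5.78 and 7.35 CPM at T2, at least 15.7-fold higher against a floor of 3 counts over the T0 group. Clnk, an adaptor of immune receptors, was likewise at 0 at T0 and at 1.22, 3.03 and 22.5 CPM at T2, at least 16.1-fold higher, and at least 7.37-fold higher without T2 WT 1, which held the 22.5 CPM. Pimreg, a regulator of mitosis, stood at 5.61, 13.5 and 21.7 CPM at T2, against 0, 0 and 0.891 CPM at T0 (6.56 ± 0.64, 8.49 without T0 WT 2), and Actr3b, an actin-related protein, stood at 8.39, 11.5 and 39.3 CPM at T2, against 0, 0 and 0.981 CPM at T0. Their levels are low, so the size of these folds rests on few counts. Genes at or near 0 at T0 could pass the filter on low counts only through other groups, so their direction was favoured by the filter.

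Among the decreases with the smallest p, Slc6a19, a transporter of neutral amino acids, stood at 0, 0 and 1.16 CPM at T2, against 89.8, 132 and 146 CPM at T0, a log2 fold change of -8.3 ± 0.41 (adjusted p = 2.16e-09), and -10.43 without T2 SOD1 1 and -9.36 without T2 WT 3. Emb, the cell surface protein embigin, stood at 13, 17.3 and 24.4 CPM at T2, against 235, 304 and 351 CPM at T0 (log2 fold change -3.95 ± 0.24, adjusted p = 4.6e-09). Pdk1, a kinase that holds pyruvate back from the mitochondria, stood at 21.7, 28.8 and 52.1 CPM at T2, against 353, 410.2 and 530.2 CPM at T0 (log2 fold change -3.77 ± 0.25, adjusted p = 1.11e-08). Actn1, an actin cross-linker, fell by 4.72 on the log2 scale, Phf1, a Polycomb-associated protein, by 4.66, Orai2, a calcium channel subunit, by 4.47, and Rassf2 by 3.17. Rflnb fell by 6.32, and its log2 fold change was -8.92 without T2 SOD1 1. Lrrc3b was at 0 in all 6 T2 libraries and at 3.56, 7.14 and 17.7 CPM at T0, at least 41.6-fold lower. Jchain, the joining chain of secreted antibodies, stood at 0, 0 and 0.195 CPM at T2, against 3.56, 10.4 and 44.8 CPM at T0, a log2 fold change of -6.75 ± 0.97 (-7.7 without T2 SOD1 1 and -7.79 without T2 WT 3 and -6.14 without T0 WT 2).

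**Figure D2:**
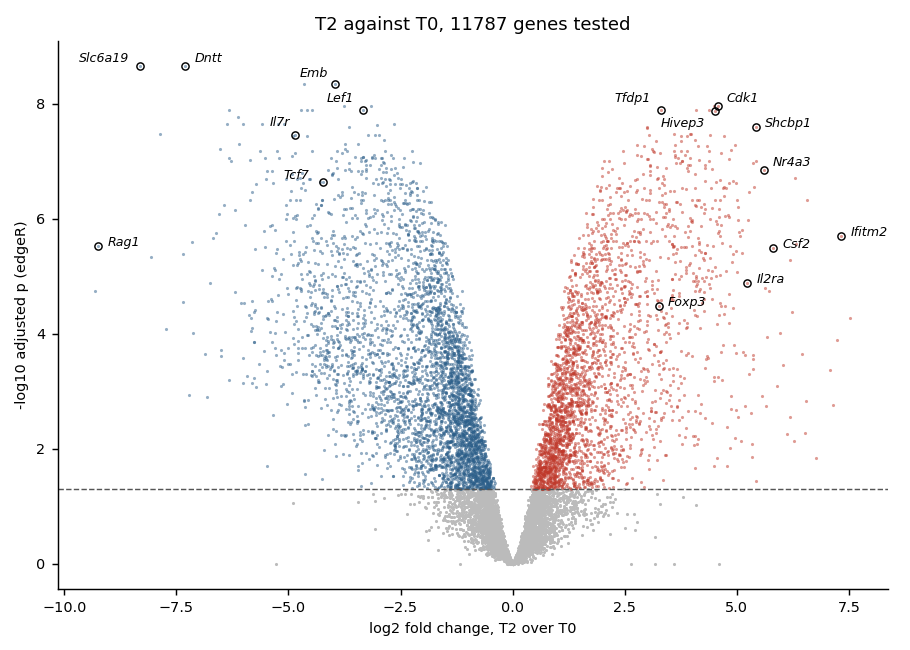
Log2 fold change of T2 over T0 (x axis) against -log10 of the edgeR adjusted p (y axis) for the 11787 genes tested, with called genes higher at T2 in red, called genes lower at T2 in blue, the rest in grey and a dashed line at 0.05. Dntt and Slc6a19 have the smallest p of all, and Cdk1 has the smallest among the higher genes.

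Immediate early transcription factors of TCR signalling were higher at T2. Of 24 genes in the list 22 were tested, 18 rose (23.8% of all genes did), 3 fell and 1 did not pass, with a median log2 fold change of 2.93. Without T0 WT 2 and T2 SOD1 1 the counts were again 18 and 3. The NR4A receptors, orphan nuclear receptors that report TCR signal strength, rose in all 3 cases. Nr4a3 stood at 112, 184 and 330.4 CPM at T2, against 0, 2.35 and 15.1 CPM at T0 (log2 fold change 5.6 ± 0.52, adjusted p = 1.4e-07, and 7.24 without T0 WT 2). Nr4a1 stood at 69.2, 91.7 and 194 CPM at T2, against 0, 2.39 and 12 CPM at T0 (4.71 ± 0.47, 8.36 without T0 WT 2), and Nr4a2 overlapped between the groups but passed (log2 fold change 2.71 ± 0.50, adjusted p = 0.000169). The 3 EGR factors, which follow MAP kinase and calcium signals, rose as well.

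Egr2 stood at 21.7, 103 and 166 CPM at T2, against 0, 1.1 and 4.07 CPM at T0, and its log2 fold change of 5.39 ± 0.54 was 6.2 without T0 WT 2. Egr1 (2.65 ± 0.29) and Egr3 (3.59 ± 0.43, 4.48 without T0 SOD1 3) moved by less. The RefSeq table of promoters (build GRCm38.p6, 250 bases before to 50 after a start) held 5 promoters of Egr2, and 4 of them contain a CArG box, the site of serum response factor, which is held by 1.63% of all 32851 promoters in the table. Of the 23 promoters of this gene list no other contains one, and 3 of the 4 Egr2 promoters overlap and share a single box. The promoter at chr10:67537619-67537918, plus strand, is shown with its CArG box in capitals.
Egr2: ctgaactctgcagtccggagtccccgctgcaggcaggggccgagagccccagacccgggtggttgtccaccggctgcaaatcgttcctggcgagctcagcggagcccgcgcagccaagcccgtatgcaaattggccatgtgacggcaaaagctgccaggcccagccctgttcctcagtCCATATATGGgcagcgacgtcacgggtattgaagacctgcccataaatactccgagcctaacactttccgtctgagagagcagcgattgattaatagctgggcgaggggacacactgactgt
The box reads CCATATATGG, and the AP-1 letters TGACTCA were in none of the 23 promoters on either strand, against 5.20% of all promoters. With so few promoters, 5 of them of Egr2, this does not show a lack of AP-1 letters.

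The AP-1 subunits differed among themselves. Junb stood at 122, 199 and 319.7 CPM at T2, against 28.6, 29.3 and 58.8 CPM at T0 (log2 fold change 2.61 ± 0.29, adjusted p = 8.93e-07) and did not overlap. Jun rose by 1.15 ± 0.31 and Fosl2 by 2.15 ± 0.51. Fos, which is made and lost within minutes of a signal, stood at 3.16, 7.99 and 16.8 CPM at T2, against 0, 0.291 and 7.12 CPM at T0 (log2 fold change 3.15 ± 0.83, 4.53 without T0 SOD1 2). Batf, the AP-1 factor of activated T cells, rose by 3.28 ± 0.62 (3.88 without T0 WT 2). Irf4, its partner in T cells, stood at 135, 312 and 417 CPM at T2, against 1.96, 18.3 and 57 CPM at T0 (log2 fold change 3.94 ± 0.53, adjusted p = 6.47e-06, 4.55 without T0 SOD1 1). Myc, the driver of cell growth, stood at 178, 286 and 378 CPM at T2, against 80.5, 87.9 and 105 CPM at T0, a smaller change of 1.63 ± 0.22 (adjusted p = 7.51e-06) that was without overlap. The 3 factors that fell were Ier5 (-0.77), Klf6 (-0.56) and Klf4 (-1.7, -0.62 without T0 WT 1), and each of these lost its call under some of the alternative settings. None of the 3 was called without T2 SOD1 3, without T0 SOD1 3, without T0 WT 1 or without T0 WT 3, and 1 was called without T2 WT 3. Maff did not pass (0.55, adjusted p = 0.255), and Fosb was too low to test.

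The feedback regulators that the same signals induce were divided. Of 19 tested genes 9 rose (23.8% of all genes did) and 8 fell (34.3%). The median log2 fold change was -0.34, against -0.24 for all genes, and lay between -0.51 and 0.08 over the 23 alternative settings. Without T0 WT 2 and T2 SOD1 1 the counts were 8 and 8. Of the phosphatases of MAP kinases 4 rose, Dusp10 fell and Dusp1 did not pass, the last 2 named after their values were seen. Dusp5 stood at 34.8, 56.6 and 85.1 CPM at T2, against 3.56, 9.0 and 15.1 CPM at T0, and the log2 fold change of Dusp4 was 4.24 (5.0 without T0 WT 2). Rgs1, which dampens chemokine receptors, stood at 189, 245 and 317 CPM at T2, against 0, 5.06 and 46.8 CPM at T0. Its log2 fold change of 4.59 ± 0.54 was 9.1 without T0 WT 2. Rgs2, of the same protein family, stood at 6.12, 9.63 and 16.8 CPM at T2, against 36.7, 48.7 and 66.6 CPM at T0, so that these relatives moved in opposite directions, both without overlap. Btg2, which holds back proliferation, fell by 3.09 on the log2 scale, and Pde4b, which breaks down cyclic AMP, by 2.72.

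The NF-kappaB system rose in part. Of 17 genes 10 rose (23.8% of all genes did), 3 fell (34.3%) and 4 did not pass, with a median log2 fold change of 0.89. Both precursor subunits rose: Nfkb2 stood at 91.3, 137 and 176 CPM at T2, against 10.7, 17.4 and 27.2 CPM at T0 (log2 fold change 2.87 ± 0.25, adjusted p = 7.93e-08), and Nfkb1 stood at 382, 425 and 629 CPM at T2, against 42.7, 87.4 and 123 CPM at T0 (log2 fold change 2.37 ± 0.24, adjusted p = 2.94e-07). Rel, the subunit of lymphocytes, rose by 1.84 ± 0.26, while Rela, the subunit of most cells, did not pass (0.12 ± 0.17, adjusted p = 0.544). The inhibitors Nfkbia (0.69), Nfkbib (1.62), Nfkbid (1.53, 2.15 without T0 WT 3) and Nfkbie (1.4, 2.03 without T0 WT 2) rose, and Bcl3, a nuclear member of that family, stood at 13.5, 39.8 and 67.4 CPM at T2, against 1.22, 2.37 and 7.57 CPM at T0. Bcl10, an adaptor of antigen receptor signalling, fell by 1.04 on the log2 scale, a call lost in 4 of 23 alternative settings (-0.44 without T0 WT 1), while the protease Malt1 did not pass (0.27). Traf1 fell by 1.62.

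Signalling components upstream of these factors were mostly lower at T2. Of 28 genes of the TCR machinery 19 fell (34.3% of all genes did), 2 rose and 7 did not pass, with a median log2 fold change of -1.09. Lck, the kinase that starts the cascade, stood at 241, 279 and 352 CPM at T2, against 615, 789 and 886 CPM at T0 (log2 fold change -1.45 ± 0.19, adjusted p = 5.21e-06). Dgka, a kinase that removes the messenger diacylglycerol, stood at 36.1, 63.3 and 113 CPM at T2, against 748, 862 and 980.5 CPM at T0, and Grap2, an adaptor, at 26.9, 49.4 and 60.3 CPM at T2, against 374, 482 and 535 CPM at T0. Rasgrp1, which answers diacylglycerol, fell by 2.31, Prkcq, the protein kinase C of T cells, by 1.91 and Cd28, the costimulatory receptor, by 1.83. Of 11 tested genes of the NFAT and calcineurin pathway 6 fell (34.3% of all genes did) and 1 rose, with a median of -0.55, against -0.24 for all genes. Ppp3ca, a catalytic subunit of calcineurin, stood at 9.19, 18.6 and 25.9 CPM at T2, against 75.1, 108 and 146 CPM at T0, and Stim1, the calcium sensor, stood at 28.1, 38.5 and 56.5 CPM at T2, against 74.8, 135 and 186 CPM at T0. Nfatc1 (-0.61, adjusted p = 0.0123) and Ppp3r1 (-0.55, adjusted p = 0.0232) fell in this fit, and their calls were lost in 10 and 12 of 23 alternative settings. The count of NFAT pathway genes that fell was 3 without T2 SOD1 3, without T0 SOD1 3, without T0 WT 1 or without T0 WT 3. Over the 23 alternative settings it was as low as 2.

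Treg core genes were higher at T2 as a group. Of 23 genes 20 were tested, 18 rose (23.8% of all genes did), Nrp1 fell and Prdm1 did not pass. The median log2 fold change was 3.22. Without T0 WT 2 and T2 SOD1 1 the counts were the same. The filter on low counts favours a rise in members near 0 at T0, such as Il10. Capg, an actin-capping protein, stood at 351, 447 and 517 CPM at T2, against 12.8, 28.9 and 63.7 CPM at T0 (log2 fold change 3.75 ± 0.30, adjusted p = 3.67e-08). Lrrc32, which docks latent TGF-beta on the cell, stood at 31.8, 52.4 and 89.8 CPM at T2, against 0.981, 4.68 and 8.55 CPM at T0 (log2 fold change 3.46 ± 0.40, adjusted p = 1.25e-06, 4.1 without T0 WT 2). Ikzf2, the factor Helios, stood at 67.4, 94.3 and 126 CPM at T2, against 21.4, 33.1 and 61.1 CPM at T0 (log2 fold change 1.4 ± 0.29, adjusted p = 0.000442), and Ctla4, the inhibitory receptor, stood at 31, 102 and 275 CPM at T2, against 3.92, 10.4 and 25.8 CPM at T0 (3.19 ± 0.59, 2.36 without T2 WT 2 and 4.0 without T0 WT 2). Entpd1 and Nt5e, which turn ATP to adenosine at the cell surface, rose by 4.09 ± 0.58 (4.85 without T0 SOD1 2 and 7.42 without T0 WT 2) and 2.39 ± 0.37. Izumo1r, the folate receptor 4 of Treg cells, rose by 2.78 ± 0.40, and Gpr83, a G protein-coupled receptor, by 2.43 ± 0.35. Itgae, the integrin CD103, stood at 17.8, 84.4 and 265 CPM at T2, against 0, 5.25 and 10.8 CPM at T0 (4.28 ± 0.65, 3.52 without T2 SOD1 1). Il10, the anti-inflammatory cytokine, stood at 0, 9.75 and 60.6 CPM at T2, against 0, 0 and 8.02 CPM at T0, with overlap and a wide error (5.32 ± 1.31, 4.42 without T2 WT 2 and 6.53 without T0 WT 2). Nrp1, the neuropilin of thymus-derived Treg cells, stood at 10.4, 17.6 and 21.7 CPM at T2, against 24.2, 33 and 54.4 CPM at T0 (log2 fold change -1.06 ± 0.33, adjusted p = 0.0113), a call lost in 7 of 23 settings.

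Costimulatory and checkpoint receptors rose in 20 of 26 cases (23.8% of all genes did) and fell in 4 (34.3%), with a median log2 fold change of 3.04. Those that fell were Cd28, Cd27, Cd40lg and Slamf6, of which the last 2 are named after their values were seen. Cd27, a costimulatory receptor of resting T cells, stood at 18.3, 31.5 and 78.6 CPM at T2, against 288, 368 and 493 CPM at T0 (log2 fold change -3.52 ± 0.39, adjusted p = 8.73e-07). Tnfrsf9, the receptor 4-1BB, stood at 119, 189 and 532 CPM at T2, against 0, 3.61 and 31.2 CPM at T0 (5.04 ± 0.60, 7.12 without T0 WT 2). Tnfrsf4, the receptor OX40, stood at 81.4, 267 and 687 CPM at T2, against 8.05, 12.8 and 57 CPM at T0 (4.2 ± 0.54, 4.91 without T0 WT 2), and Icos rose by 2.01 ± 0.25. Pdcd1, the receptor PD-1, stood at 39.1, 49.97 and 65.9 CPM at T2, against 0, 4.0 and 10.7 CPM at T0 (log2 fold change 3.36 ± 0.38, adjusted p = 9.32e-07). Cd69, the early marker that keeps cells in tissue, stood at 30.6, 61.3 and 122 CPM at T2, against 0, 3.8 and 11.1 CPM at T0, a change of 3.61 ± 0.37 (4.24 without T0 WT 2).

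Cytokine genes rose in 15 of the 16 that could be tested (23.8% of all genes did), from a list of 23. The other 7, Il2 among them, were too low to test, so the count holds for genes expressed in one of the groups and is not a count of all cytokines. Lta, lymphotoxin alpha, stood at 269.5, 702 and 878 CPM at T2, against 0, 14.9 and 100.2 CPM at T0 (4.61 ± 0.56, 6.37 without T0 WT 2). Ifng, interferon gamma, stood at 253, 389 and 1063 CPM at T2, against 0.981, 4.02 and 108 CPM at T0, and the T0 maximum was that of T0 WT 2 (4.82 ± 0.72, 5.54 without T0 SOD1 2 and 7.2 without T0 WT 2). Csf2, the growth factor GM-CSF, stood at 17.4, 57.5 and 93.1 CPM at T2, against 0, 0 and 8.47 CPM at T0 (5.81 ± 0.73, 7.22 without T0 SOD1 1 and 9.23 without T0 WT 2). Tnf stood at 33.9, 73 and 83.3 CPM at T2, against 0, 2.56 and 8.47 CPM at T0, a change of 4.3 ± 0.39 (5.59 without T0 WT 2), and Ltb did not pass. Tgfb1, which encodes TGF-beta, stood at 114, 198 and 215 CPM at T2, against 30.4, 49.1 and 59.9 CPM at T0 (log2 fold change 1.89 ± 0.26, adjusted p = 9.62e-06). Of 10 chemokine genes 6 were tested and 5 rose, while Ccl22, Cxcl2, Cxcl10 and Cxcl16 were too low to test. Genes near 0 at T0 could pass the filter only through other groups, which favours a rise in this count and in that of cytokines. Ccl4 stood at 124, 343 and 612 CPM at T2, against 0, 6.24 and 41.4 CPM at T0 (5.12 ± 0.60, 9.55 without T0 WT 2), Ccl3, which lies beside it and is similar in sequence, at 50.8, 129.8 and 163 CPM at T2, against 0, 2.68 and 14.3 CPM at T0 (4.71 ± 0.49, 6.32 without T0 WT 2), and Xcl1 at 19.6, 116 and 444 CPM at T2, against 0, 2.98 and 12.9 CPM at T0 (4.83 ± 0.81, 8.52 without T0 WT 2). Ccl5, of memory T cells, did not pass (-1.18, adjusted p = 0.136).

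Cytokine receptors moved both ways, with 10 of 22 tested genes higher (23.8% of all genes were), 8 lower (34.3%) and a median log2 fold change of 0.36. The chains of the interleukin-2 receptor parted from that of interleukin-7. Il2rb, the beta chain, stood at 501, 643 and 805 CPM at T2, against 10.7, 20.9 and 85.5 CPM at T0, a log2 fold change of 4.38 ± 0.37 (5.11 without T0 WT 2). Il7r, the receptor of the survival factor of resting T cells, stood at 8.69, 27.2 and 58.2 CPM at T2, against 694, 893 and 972 CPM at T0 (log2 fold change -4.86 ± 0.38, adjusted p = 3.5e-08). Il12rb1, of the interleukin-12 receptor, stood at 16.8, 38.2 and 64.3 CPM at T2, against 0, 1.77 and 4.46 CPM at T0 (4.28 ± 0.46, 5.18 without T0 WT 2), and Il6ra, the interleukin-6 receptor, at 13.5, 16.3 and 28.1 CPM at T2, against 114, 213 and 238 CPM at T0 (log2 fold change -3.46 ± 0.36, adjusted p = 3.74e-07). Genes that answer interleukin-2 through STAT5 rose in 12 of 15 cases and fell in none in this fit, with a median of 2.11. They included Socs2, a feedback inhibitor, at 115, 169 and 253 CPM at T2, against 1.22, 10.1 and 28.5 CPM at T0 (log2 fold change 4.0 ± 0.42, adjusted p = 4.75e-07), Socs1 (2.11) and Stat5a itself, which stood at 95.6, 206 and 301 CPM at T2, against 20.6, 40.4 and 51.2 CPM at T0 (log2 fold change 2.38 ± 0.32, adjusted p = 6.46e-06).

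Genes of quiescence and lymph node homing were lower at T2. Of 26 genes 25 were tested, 24 fell (34.3% of all genes did), 1 did not pass and none rose, with a median log2 fold change of -3.03. Without T0 WT 2 and T2 SOD1 1 the counts were 23 and 0. Tcf7, a factor of naive and progenitor T cells, stood at 33.1, 82.6 and 163 CPM at T2, against 1509.8, 1711 and 1924 CPM at T0 (log2 fold change -4.23 ± 0.41, adjusted p = 2.31e-07). Lef1, its close relative, stood at 69.6, 81 and 135 CPM at T2, against 691, 933 and 1051 CPM at T0 (log2 fold change -3.34 ± 0.23, adjusted p = 1.26e-08). Tob1, an inhibitor of T cell proliferation, stood at 8.64, 10.9 and 16.8 CPM at T2, against 60.5, 81.5 and 144 CPM at T0 (log2 fold change -3.08 ± 0.24, adjusted p = 3.5e-08). Tmem71 stood at 0, 5.2 and 11.2 CPM at T2, against 114, 167 and 219 CPM at T0 (-5.07 ± 0.49, -5.82 without T2 SOD1 1 and -5.9 without T2 WT 3), and Ly6c1, a surface protein of circulating T cells, at 0, 4.57 and 28.1 CPM at T2, against 86, 135 and 247 CPM at T0 (log2 fold change -4.63 ± 0.47, adjusted p = 3.18e-07). The groups did not overlap for any of these 5 genes. Thymocytes, too, express Tcf7 and Lef1, so both are genes of either population.

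Most genes of cell growth rose. Of 34 nucleolar and ribosome assembly genes linked to MYC 31 rose (23.8% of all genes did) and 2 fell, with a median log2 fold change of 1.38. Npm1, a nucleolar chaperone, stood at 1264, 2455 and 3221 CPM at T2, against 291, 366 and 677 CPM at T0 (log2 fold change 2.48 ± 0.29, adjusted p = 1.29e-06), and Nolc1, of small nucleolar particles, stood at 219, 347 and 387 CPM at T2, against 69.2, 83.9 and 108 CPM at T0 (log2 fold change 1.9 ± 0.22, adjusted p = 1.26e-06). The 2 that fell were Wdr12 and Polr1a, named after their values were seen. Translation factors and tRNA synthetases rose in 21 of 22 cases and fell in none, with a median of 1.63. Eif5a, an elongation factor, stood at 777, 1349 and 1717 CPM at T2, against 135, 167 and 274 CPM at T0 (log2 fold change 2.78 ± 0.27, adjusted p = 2.05e-07), Eif4e, which binds the cap of mRNA, at 186, 273 and 349 CPM at T2, against 46.5, 65 and 107 CPM at T0 (log2 fold change 2.0 ± 0.23, adjusted p = 1.46e-06), and Aars, the synthetase for alanine, rose by 2.29 ± 0.31. All of these were without overlap.

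Nutrient uptake and synthesis genes were mostly higher at T2. Among 16 transporters 13 rose (23.8% of all genes did), Slc38a2 fell and 2 did not pass, with a median log2 fold change of 1.65. Slc7a5, of the large neutral amino acid transporter, stood at 135, 254 and 582 CPM at T2, against 3.56, 18.6 and 61 CPM at T0 (3.54 ± 0.54, 4.61 without T0 WT 2), and Tfrc, the transferrin receptor that brings in iron, stood at 275, 306 and 368 CPM at T2, against 7.12, 21.2 and 55.2 CPM at T0 (log2 fold change 3.61 ± 0.30, adjusted p = 5.11e-08). Slc38a2, a transporter of small amino acids, stood at 69.6, 134 and 209 CPM at T2, against 413, 646 and 736 CPM at T0 (log2 fold change -2.12 ± 0.24, adjusted p = 9.42e-07). Serine, folate and nucleotide synthesis rose in 24 of 26 genes and fell in 1, Impdh1, named after its value was seen, with a median of 2.06. Odc1, which makes polyamines, stood at 202, 274 and 378 CPM at T2, against 8.55, 17.3 and 45.9 CPM at T0 (log2 fold change 3.68 ± 0.32, adjusted p = 8.78e-08), and Phgdh, which opens serine synthesis, stood at 124, 214 and 281 CPM at T2, against 27.5, 37.4 and 53.4 CPM at T0 (log2 fold change 2.48 ± 0.22, adjusted p = 1.05e-07). Mthfd2, of the mitochondrial folate cycle, stood at 95.6, 107 and 194 CPM at T2, against 0, 9.47 and 20.5 CPM at T0 (3.38 ± 0.36, 4.12 without T0 WT 2), and Shmt1, of the cytosolic one, rose by 3.41 ± 0.31.

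Glycolysis genes rose in 15 of 17 cases (23.8% of all genes did) and fell in none, with a median log2 fold change of 2.40. Ldha, which makes lactate, stood at 769, 1386 and 2104 CPM at T2, against 114, 145 and 311 CPM at T0 (log2 fold change 3.07 ± 0.31, adjusted p = 3.54e-07), and Tpi1, an enzyme of the middle of the pathway, at 188, 406 and 822 CPM at T2, against 15.9, 21.9 and 69.9 CPM at T0 (log2 fold change 3.95 ± 0.47, adjusted p = 1.62e-06). Hk2, the inducible hexokinase, stood at 23.3, 81.9 and 210.1 CPM at T2, against 0, 1.77 and 8.02 CPM at T0, and its log2 fold change of 4.92 ± 0.63 was 8.31 without T0 WT 2. Genes of cholesterol synthesis rose in 17 of 20 cases and fell in none, with a median of 1.47. Idi1, which makes the isoprene unit, stood at 157, 218 and 252 CPM at T2, against 7.12, 22.1 and 49 CPM at T0 (log2 fold change 3.06 ± 0.29, adjusted p = 1.75e-07), and Sqle, squalene epoxidase, rose by 2.42 ± 0.26. Heat shock chaperones rose in 16 of 20 tested cases and fell in 2, with a median of 1.36. Hspd1, the chaperonin of mitochondria, stood at 668, 1158 and 1311 CPM at T2, against 103, 154 and 266 CPM at T0 (log2 fold change 2.73 ± 0.30, adjusted p = 6.75e-07), and Hsp90aa1, a cytosolic chaperone, at 943, 1255 and 1672 CPM at T2, against 225, 243 and 512 CPM at T0 (log2 fold change 2.16 ± 0.28, adjusted p = 4.06e-06).

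**Figure D3:**
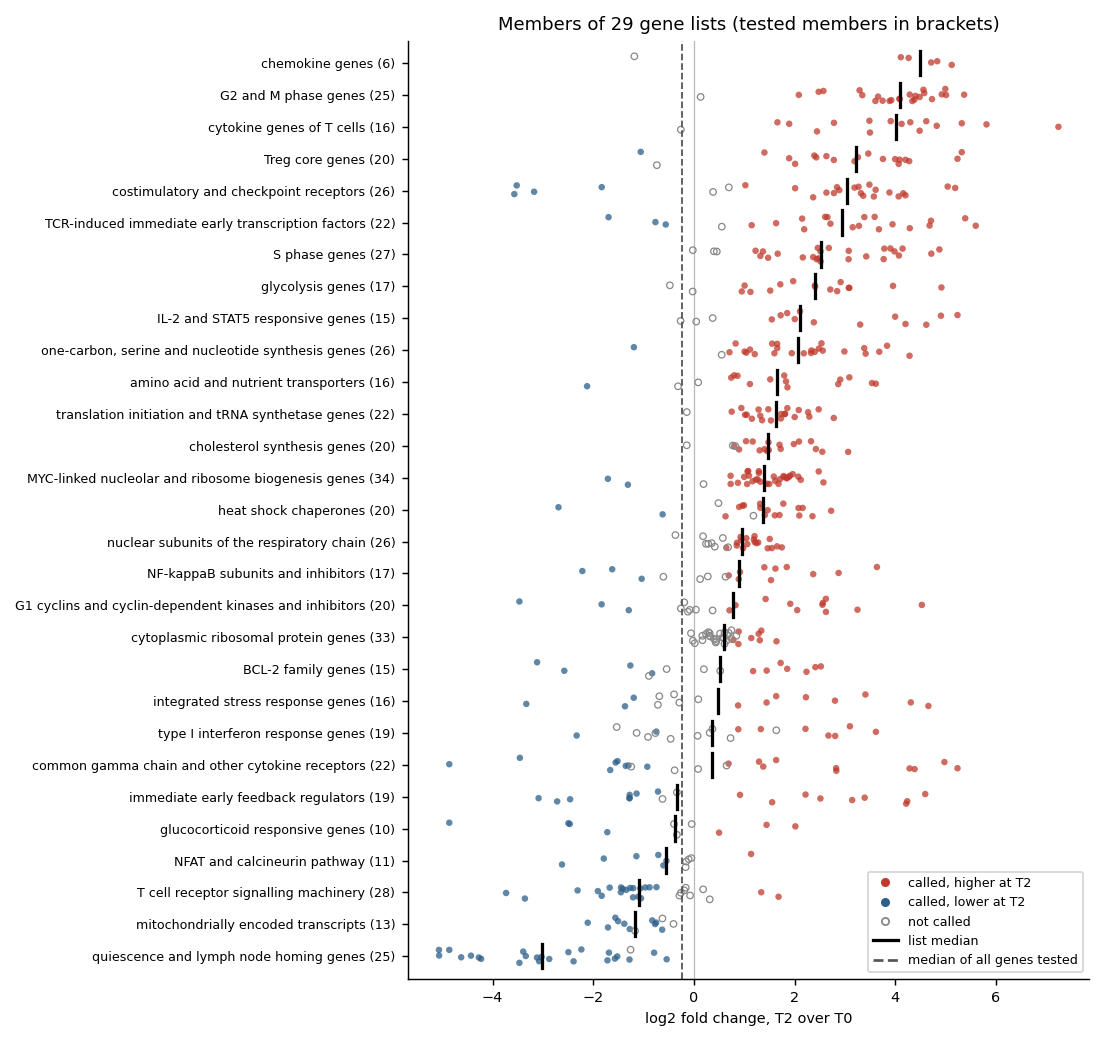
Log2 fold change of T2 over T0 (x axis) for the tested members of 29 gene lists (rows, ordered by median). Filled points are called genes, higher in red and lower in blue, open points are not called, black bars are list medians and the dashed line is the median of all genes, -0.24. Chemokines, G2 and M phase genes and cytokines have the highest medians of tested members, and quiescence and homing genes the lowest, -3.03. Members too low to test are left out.

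Lists of cell cycle genes were higher at T2, with larger medians for the later phases. Of 20 tested G1 cyclins, kinases and inhibitors 11 rose (23.8% of all genes did), 3 fell (34.3%) and 6 did not pass. Their median log2 fold change was 0.77. Ccnd2, the D cyclin of lymphocytes, stood at 404, 595 and 792 CPM at T2, against 71.2, 91 and 139 CPM at T0 (log2 fold change 2.62 ± 0.26, adjusted p = 2.67e-07). The cyclin kinase inhibitors moved in opposite directions. Cdkn1b, the inhibitor p27 of resting cells, stood at 18.4, 36.9 and 78.6 CPM at T2, against 258, 316 and 976 CPM at T0 (-3.47 ± 0.39, -2.83 without T0 WT 1), while Cdkn1a, the inhibitor p21, stood at 17.4, 55.4 and 158 CPM at T2, against 0, 1.1 and 11.6 CPM at T0 (4.53 ± 0.52, 6.04 without T0 WT 2). Of 27 S phase genes 24 rose and none fell, with a median of 2.51. Rrm2, the regulated subunit of ribonucleotide reductase, stood at 219, 268 and 437 CPM at T2, against 3.56, 6.52 and 38.3 CPM at T0, where 38.3 CPM was the value of T0 WT 2 (4.71 ± 0.38, 5.67 without T0 WT 2). Rrm1, the other subunit, stood at 230.2, 309 and 504 CPM at T2, against 7.12, 20.2 and 35.2 CPM at T0 (log2 fold change 3.98 ± 0.31, adjusted p = 3.41e-08), Mcm6, of the replicative helicase, at 289.7, 358 and 608 CPM at T2, against 54.6, 64.5 and 95.3 CPM at T0 (log2 fold change 2.47 ± 0.21, adjusted p = 6.61e-08), and Tyms, which makes thymidylate, at 78.6, 166 and 243 CPM at T2, against 4.47, 8.09 and 22.7 CPM at T0 (log2 fold change 4.07 ± 0.33, adjusted p = 4.34e-08).

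Of 25 genes of G2 and M phase 24 rose (23.8% of all genes did), 1 did not pass and none fell, with a median log2 fold change of 4.09. Without T0 WT 2 and T2 SOD1 1 the counts were again 24 and 0. For 21 of the 25 all T2 libraries lay above all T0 libraries, against 9.79% of all genes. Ccnb2, a B cyclin, stood at 39.1, 68.9 and 77.5 CPM at T2, against 0, 4.16 and 6.26 CPM at T0 (log2 fold change 3.89 ± 0.31, adjusted p = 3.67e-08), and Kif20a, a kinesin of cytokinesis, stood at 56.1, 94 and 151 CPM at T2, against 3.56, 6.03 and 13.8 CPM at T0 (log2 fold change 3.6 ± 0.28, adjusted p = 3.41e-08). The summed level of the 25 genes was 3211 to 4829 CPM at T2 and 131 to 587 CPM at T0.

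These genes are known to share promoter elements: the cell cycle genes homology region (CHR), bound by the complex that holds them silent in resting cells, and CCAAT boxes, bound by NF-Y. The letters TTTGAA of the CHR and CCAAT, sought on both strands after the results had been seen, were described in the RefSeq promoters (GRCm38.p6). Of the 22 promoters of the list 17 (77.3%) hold TTTGAA, against 17.9% of all 32851 promoters, and 20 (90.9%) hold CCAAT, against 37.4% of all. In the 25 promoters of S phase genes these numbers were 3 and 17. The promoters of Cdk1 (chr10:69352863-69353162, minus strand), Ccnb2 (chr9:70421505-70421804, minus strand) and Kif11 (chr19:37376132-37376431, plus strand) are shown because they carry both, with CHR and CCAAT letters of either strand in capitals. The letters are a description, and no binding was measured.
Cdk1: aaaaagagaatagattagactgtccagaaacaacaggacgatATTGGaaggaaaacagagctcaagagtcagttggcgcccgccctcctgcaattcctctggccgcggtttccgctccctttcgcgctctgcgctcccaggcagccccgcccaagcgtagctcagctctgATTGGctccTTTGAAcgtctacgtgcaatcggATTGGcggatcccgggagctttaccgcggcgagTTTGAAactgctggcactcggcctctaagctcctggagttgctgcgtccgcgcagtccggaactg
Ccnb2: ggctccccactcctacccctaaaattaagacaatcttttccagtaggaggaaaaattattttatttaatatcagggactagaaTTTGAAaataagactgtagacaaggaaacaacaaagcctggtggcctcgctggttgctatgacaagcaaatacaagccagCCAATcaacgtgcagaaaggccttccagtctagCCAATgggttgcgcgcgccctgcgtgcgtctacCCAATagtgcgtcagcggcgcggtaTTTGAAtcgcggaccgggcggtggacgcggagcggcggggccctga
Kif11: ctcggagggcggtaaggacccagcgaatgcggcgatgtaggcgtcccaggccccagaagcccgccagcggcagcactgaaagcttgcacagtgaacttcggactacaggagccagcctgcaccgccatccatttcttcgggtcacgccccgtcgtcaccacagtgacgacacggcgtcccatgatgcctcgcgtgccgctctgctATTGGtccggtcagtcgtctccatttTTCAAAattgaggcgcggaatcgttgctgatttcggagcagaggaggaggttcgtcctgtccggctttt

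Mitochondrially encoded genes were lower at T2 and nuclear genes of the respiratory chain higher. All 13 transcripts of the mitochondrial genome were tested, 10 fell (34.3% of all genes did), 3 did not pass and none rose. Their median log2 fold change was -1.17. mt-Co1, of cytochrome oxidase, stood at 814, 1233 and 1437 CPM at T2, against 1962, 2887 and 5007 CPM at T0 (log2 fold change -1.38 ± 0.26, adjusted p = 0.000178), mt-Nd4, of complex I, at 333, 508 and 786 CPM at T2, against 972, 1514 and 2099 CPM at T0 (log2 fold change -1.51 ± 0.27, adjusted p = 0.000116), and mt-Atp6, of the ATP synthase, at 220.1, 907 and 1589 CPM at T2, against 2044, 2862 and 3648 CPM at T0 (log2 fold change -1.71 ± 0.33, adjusted p = 0.000237), all without overlap. Of the 26 nuclear subunits of the respiratory chain 18 rose (23.8% of all genes did), 8 did not pass and none fell, with a median of 0.96. Atp5a1, the alpha subunit of the ATP synthase, stood at 530.3, 589 and 756 CPM at T2, against 251, 279.6 and 396 CPM at T0 (log2 fold change 1.04 ± 0.18, adjusted p = 7.16e-05), and Cox5a, of cytochrome oxidase, rose by 1.5 ± 0.32 with overlap. The count of mitochondrial transcripts that fell was 7 without T0 WT 2 and T2 SOD1 1 and 5 without the libraries of under 300000 counts, without the pile-up loci, without T2 SOD1 3 or without T0 WT 3. It was 6 without T0 SOD1 3, without the filter on low counts or with the T20 libraries left out, and the median stayed below 0 in each of the settings that tested these genes.

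Of 33 cytoplasmic ribosomal protein genes 8 rose (24.2%, near the 23.8% of all genes) and 25 did not pass, with a median log2 fold change of 0.59. This count depends on the method and on single libraries: 16 rose with DESeq2, 20 with limma voom, 23 with no filter on low counts and 21 without the ribosomal RNA-like and mitochondrial loci or without the pile-up loci. Without T2 SOD1 1, the library with the lowest ribosomal protein share, 29 of 33 rose, and without it and T0 WT 2 30 rose. It was 14 without T0 SOD1 3 or without T0 WT 3, and 5 without T2 SOD1 2. Rpl4 stood at 1471, 2148 and 2302 CPM at T2, against 637, 698 and 1221 CPM at T0 (log2 fold change 1.34 ± 0.20, adjusted p = 2.6e-05), and Rpl3 stood at 797, 1299 and 1926 CPM at T2, against 434, 564 and 611 CPM at T0 (log2 fold change 1.31 ± 0.22, adjusted p = 7.51e-05). As a share of all counts, ribosomal proteins took 7.56 ± 2.95% at T2 and 4.36 ± 1.07% at T0 (SD, n = 6 each, exact permutation p = 0.0368), and p was up to 0.0736 with 1 library left out and 0.110 without the 2 libraries of low depth (exact permutation). Total counts did not differ beyond their spread (exact permutation p = 0.937).

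Both genotypes were also taken alone. In SOD1 cultures 2021 genes were higher at T2 (17.1%) and 2932 lower (24.9%), and in WT cultures 1947 (16.5%) and 2857 (24.2%). Of these, 3720 were called in the same direction in both genotypes and 0 in opposite directions. The test of the difference, SOD1 minus WT, called 0 genes with edgeR (486, or 4.12%, at an unadjusted p under 0.05), 0 with limma voom and 5 with DESeq2. With 3 libraries a group this does not show that the genotypes responded alike. Foxp3 changed by 3.64 ± 0.70 on the log2 scale in SOD1 cultures and by 2.87 ± 0.75 in WT cultures, and the difference of 0.77 was not called (unadjusted p = 0.447, edgeR). Kif11 changed by 5.62 ± 0.45 in SOD1 and 3.34 ± 0.40 in WT cultures (adjusted p of the difference = 0.95).

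The G2 and M phase genes had a median log2 fold change of 5.04 in SOD1 cultures and 3.51 in WT cultures, and 8 of the 25 had an unadjusted p under 0.05 for the difference, with a smallest adjusted p of 0.950. Of the T0 libraries, T0 WT 2 held the most Kif11, 14.7 CPM. Without it the medians were 5.05 and 4.42 and the number was 4. Treg core genes had medians of 3.30 and 2.65, and without T0 WT 2 these were 3.30 and 3.69, so that the order of the genotypes turned round with 1 library. Quiescence genes had medians of -3.11 in SOD1 and -2.80 in WT cultures.

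**Figure D4:**
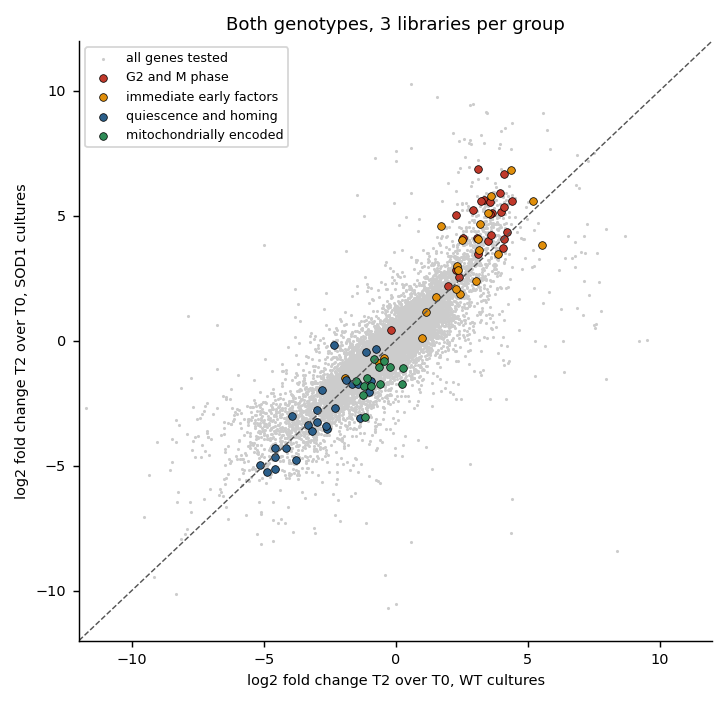
Log2 fold change of T2 over T0 in SOD1 cultures (y axis) against that in WT cultures (x axis) for all genes tested (grey) and for 4 gene lists (colours), with a dashed line where both are equal. G2 and M phase genes lie mostly above the line (medians 5.04 and 3.51), and quiescence and homing genes lie in the lower left.

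The T20 libraries are given as levels. Their comparison with T0 and that of T2 with T0 share the 6 T0 libraries, so each is given by its own values. Median Nr4a3 was 2.35 CPM at T0, 184 CPM at T2 and 171 CPM at T20, and median Irf4 was 18.3, 312 and 269 CPM in that order. Median Foxp3 was 6.92 CPM at T0, 109 CPM at T2 and 98.6 CPM at T20, with a range of 39.5 to 325 CPM at T20. The later libraries of Il2ra had a median of 1341 CPM, below the 2068 CPM at T2, but the T20 range of 1177 to 2731 CPM overlapped that of T2. Kif11 had medians of 3.53, 107 and 114 CPM at T0, T2 and T20, and Rrm2 of 6.52, 268 and 274 CPM. Among genes that were lower, median Tcf7 was 1711, 82.6 and 102 CPM and median Lef1 was 933, 81.0 and 103 CPM. The list medians of the log2 fold change over T0 were 4.09 at T2 and 4.14 at T20 for G2 and M phase genes, 3.22 and 2.96 for Treg core genes, 2.40 and 1.82 for glycolysis genes and -3.03 and -2.56 for quiescence and homing genes. The difference between T20 and T2 was not tested.

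**Figure D5:**
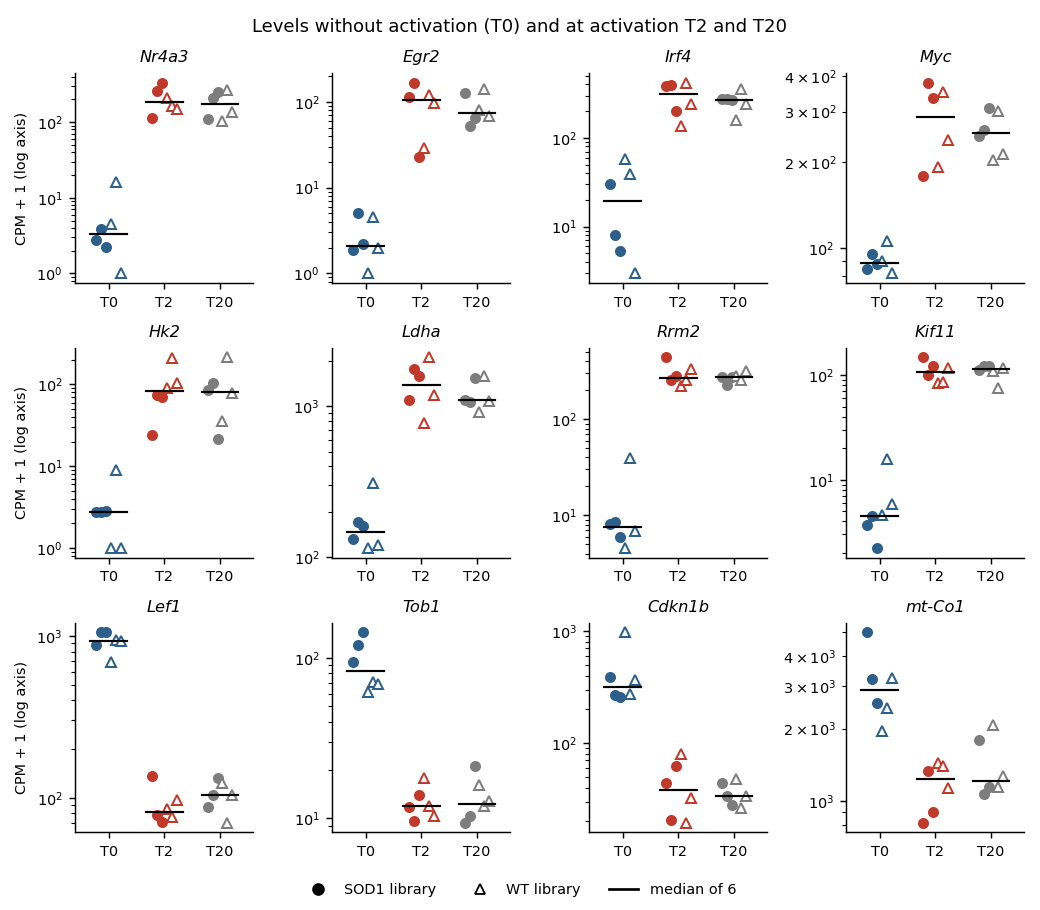
Level of 12 genes in CPM + 1 on a log axis in 6 libraries each at T0, T2 and T20, with filled circles for SOD1, open triangles for WT and a bar at the median of 6. For 11 of the 12 genes neither the T2 nor the T20 libraries overlap the T0 libraries, for example Kif11 with medians of 3.53, 107 and 114 CPM, while mt-Co1 at T20 overlaps T0.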

How the data were processed

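Bulk RNA-seq counts per gene were used as deposited by the authors, in 1 table of raw counts. Per the labels' protocols, libraries were made with the SMARTseq v4 low input kit from sorted cells, and per the submitters' processing notes the build was mm10 and DESeq2 was among the tools. The labels name no aligner, counter or strand setting, so overlapping and antisense genes, the copies Bcl2a1b and Bcl2a1d, and Sod1, Gm8566 and the human transgene cannot be told apart by these counts. Of 55487 gene IDs, 55094 matched the GENCODE vM21 annotation, which gave symbols and coordinates.

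Genes were filtered with edgeR's filterByExpr and tested with edgeR's quasi-likelihood test (version 4.0.16, R 4.3.3, TMM scaling) over all 18 culture libraries in 6 groups, T2 over T0 averaged over genotype, with Benjamini-Hochberg adjustment over all genes tested and a threshold of 0.05. Standard errors come from the same test, and intervals cover counting and library spread only. The steps were run on simulated counts in which far fewer genes changed than were called here. The scaling under so large a change was therefore not tested by that run. Members and gene lists were chosen with earlier results of these data known. Genes were named by a rule: per direction the 10 with the smallest p and the 5 with the largest fold, with an adjusted p under 0.05, at least a 2-fold change, 5 CPM in the higher group and no overlap, plus up to 6 genes per list, all members of the immediate early, Treg core and NF-kappaB lists, and the markers. Promoter sequences are from RefSeq (GRCm38.p6), held for 202 of 276 named genes. Alternatives were DESeq2 1.42.0, limma 3.58.1, other scaling, filters, dispersion and sample sets. Sorted thymus cells and whole thymus were not used, and some results are not reported here.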

Additional observations from a re-analysis of the deposited data

Results flagged for a closer look

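Among 60 groups of 6 libraries, 4 had a library at one end whose gap to its neighbour, as a share of the group's range, passed Dixon's critical value, and chance gives about 1 in 20. At T2 the library T2 WT 1, of 171619 counts, had the largest share of counts in the pile-up loci, 6.68%. The same library held the highest Rag1 at T2, 5.61 CPM. At T0 the library T0 WT 1 held the lowest Il7r, 694 CPM. At T0 the library T0 WT 2 held the highest Rrm2, 38.3 CPM.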

How the results depend on the processing

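Of the 6850 called genes, between 5206 (no filter on low counts) and 6834 (shared dispersion) were called in the same direction in each of 23 settings, and 0 were called in the opposite one. Higher genes made up 39.0% to 52.2% of calls, and leaving out 1 library gave 2548 to 3508 higher and 3107 to 4351 lower. The split was 3547 higher and 3505 lower without the pile-up loci, 3090 and 3340 with the T0 and T2 libraries alone, 4104 and 3911 with no filter and 3693 and 3748 without the libraries under 300000 counts. The genes lower at T2 numbered 1606 to 3131 in SOD1 cultures (1606 without T0 SOD1 3) and 1824 to 3171 in WT cultures (1873 without T0 WT 1, 1824 without T0 WT 3) with 1 library left out. The test between genotypes called 5 genes with DESeq2, 73 with no filter and 0 to 1 with 1 library left out. The ribosomal protein share differed by 2.63 to 4.29 percentage points with 1 library left out (exact permutation p 0.00216 to 0.0736), by 2.79 without low depth libraries (p = 0.110, exact permutation) and by 3.20 with the replicate block (p = 0.0625, exact). The log10 ratio of total counts, -0.0327 with all libraries, was -0.159 to 0.136 with 1 library left out, among them 0.111 without T2 SOD1 3, 0.136 without T2 WT 1 and 0.0213 without T0 WT 2, and 0.357 without both low depth libraries. Malt1, not called, was -0.0508 on the log2 scale with limma voom. Of the 259 named genes called, 21 lost the call in some setting and 0 changed sign. Of 267 named genes compared, 51 moved by over 1.5 times without T0 WT 2, 48 of them further from 0, and 11 did so without T2 SOD1 1. The causes were not tested. The settings without these 2 libraries and without the pile-up loci were chosen after seeing the data.

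Replicate numbers are shared across groups in the labels, and the main fit did not treat the libraries as pairs. The deviations of same-numbered libraries correlated at 0.028 to 0.0927, and those of the other pairs of a genotype at -0.0762 to 0.0195. The column names number the libraries of a replicate consecutively over T0, T2 and T20, but the labels do not say that they came from the same animal. With the replicate block 2697 genes were higher and 4000 lower. Each of 6 T2 libraries correlated best with its own number, a hint from the data. Depth limits genes of low counts: in the libraries of 171619 and 228184 counts, 1 count is worth several CPM.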

Other observations

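Other gene groups moved in part, and their counts are read beside the 23.8% of all genes tested that rose and the 34.3% that fell. Of 19 tested genes of the type I interferon response 7 rose and 2 fell, with a median log2 fold change of 0.37, and without T0 WT 2 and T2 SOD1 1 these numbers were 7 and 4 with a median of -0.38. Gbp2, a guanylate-binding protein, stood at 42.3, 242 and 404 CPM at T2, against 9.77, 15 and 37 CPM at T0 (log2 fold change 3.61 ± 0.50, adjusted p = 9.14e-06). Ifit2, an interferon-induced protein that binds RNA, stood at 0, 5.65 and 13.8 CPM at T2, against 28.5, 32.3 and 39 CPM at T0 (log2 fold change -2.33 ± 0.28, adjusted p = 1.91e-06), without overlap. Of 15 tested BCL-2 family genes 7 rose and 4 fell, with a median of 0.52. Bcl2, which protects cells from death, stood at 92.5, 138 and 191 CPM at T2, against 26.5, 35.8 and 53 CPM at T0 (log2 fold change 1.85 ± 0.27, adjusted p = 1.66e-05), while Mcl1, with the same role, stood at 178, 228 and 275 CPM at T2, against 328, 415 and 450.4 CPM at T0 (log2 fold change -0.83 ± 0.18, adjusted p = 0.000622). Both were without overlap.

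Of 16 genes of the integrated stress response 8 rose and 3 fell, with a median of 0.48. Hspa5, the chaperone of the endoplasmic reticulum, stood at 552, 582 and 745 CPM at T2, against 96.1, 122 and 179.5 CPM at T0 (log2 fold change 2.22 ± 0.21, adjusted p = 1.39e-07). Xbp1, a factor of the stress response of the endoplasmic reticulum, stood at 143, 293 and 431 CPM at T2, against 21.4, 37 and 68.6 CPM at T0 (log2 fold change 2.8 ± 0.31, adjusted p = 7.95e-07). Of 10 tested glucocorticoid-responsive genes 3 rose and 4 fell, near the shares of all genes tested (23.8% and 34.3%). Their median was -0.37 (-0.48 to 0.06 over the 23 settings), against -0.24 for all genes, and 1 rose without T2 SOD1 2 or without T2 WT 2. Nr3c1, the glucocorticoid receptor, stood at 27, 46.4 and 71.1 CPM at T2, against 81.9, 169 and 210.3 CPM at T0 (log2 fold change -1.72 ± 0.34, adjusted p = 0.000324). Of 11 tested factors and cytokines of other helper lineages 7 rose and 3 fell, with a median of 2.23, and 4 rose without T2 SOD1 1. Tbx21, the factor T-bet, stood at 22.5, 66.2 and 87.4 CPM at T2, against 0, 2.65 and 12.9 CPM at T0 (log2 fold change 3.86 ± 0.48, 7.55 without T0 WT 2), and Bcl6, the factor of follicular helper cells, at 0, 7.68 and 16.8 CPM at T2, against 20.2, 31 and 42.3 CPM at T0 (log2 fold change -2.07 ± 0.48, adjusted p = 0.00132).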
